A study of Drosophila melanogaster with 2 samples.

Results

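The genes described here encode the proteins that start translation and the enzymes that load transfer RNAs in Drosophila melanogaster. They were chosen by symbol among the protein-coding genes of the Ensembl annotation of dm6: symbols that begin with eIF and a digit, and symbols made of amino acid names and RS, with or without the ending -m. The rule took 77 of 13945 genes, of which 44 are initiation factor genes and 33 are aminoacyl-tRNA synthetase genes, 18 without and 15 with the ending -m. The data are peak lists from chromatin immunoprecipitation and sequencing (ChIP-seq) of whole embryos aged 8 to 24 h that carry a transgene for CG43689 fused to eGFP, precipitated with an anti-GFP antibody, per the labels' description (another label field names CG43689 as the antibody). There were 2 biological replicates of this 1 group, with no second genotype, so every gene below is described and no contrast between conditions could be tested. The labels call the material whole organisms, so the cells in which the tagged protein was bound are not told apart, and the promoter that drives the fusion is not given in the sources used here. Read counts are not part of these lists, and the depth of the libraries is therefore unknown.

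Translation starts when eIF2 brings the initiator tRNA to the small ribosomal subunit together with eIF1, eIF1A, eIF3 and eIF5, the cap-binding eIF4 factors load the mRNA, and eIF5B joins the large subunit. Each synthetase attaches an amino acid to its tRNAs, in the cytoplasm or, for most genes with the ending -m, in mitochondria, and several cytoplasmic synthetases of animals work in a shared multisynthetase complex. Many of these genes are used in nearly every cell, while some have relatives expressed mainly in the testis, and many housekeeping genes in flies are arranged head to head with a neighbour, so that 1 stretch of DNA is the promoter of both.

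The DNA under 8 of the summits is shown first, because most of these sites are rich in A and T. The last 2 of the 8 have fewer runs of A and T and more G and C than the others. Each line gives 101 bases centred on the summit (base 51), 5′ to 3′ on the strand of the named gene, read from the RefSeq release 6 genome, whose coordinates are those of dm6. Capitals mark runs of 6 or more A and T. The windows are chr3R:23958494-23958594 (GluProRS), chr3L:22288480-22288580 (IleRS), chr2L:3037356-3037456 (SerRS), chr2L:12103524-12103624 (ThrRS), chr3L:2651925-2652025 (ProRS-m), chr3R:24109154-24109254 (eIF4EHP), chr3L:3223001-3223101 (eIF1) and chr3L:3460677-3460777 (eIF5B).
GluProRS: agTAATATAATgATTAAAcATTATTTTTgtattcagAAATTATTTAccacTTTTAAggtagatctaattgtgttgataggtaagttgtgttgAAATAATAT
IleRS: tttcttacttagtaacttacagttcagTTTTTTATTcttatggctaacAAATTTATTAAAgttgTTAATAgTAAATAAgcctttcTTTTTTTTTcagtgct
SerRS: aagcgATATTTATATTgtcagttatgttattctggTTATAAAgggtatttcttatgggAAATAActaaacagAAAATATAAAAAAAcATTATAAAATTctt
ThrRS: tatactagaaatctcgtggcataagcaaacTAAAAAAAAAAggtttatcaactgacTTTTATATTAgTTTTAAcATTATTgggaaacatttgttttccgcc
ProRS-m: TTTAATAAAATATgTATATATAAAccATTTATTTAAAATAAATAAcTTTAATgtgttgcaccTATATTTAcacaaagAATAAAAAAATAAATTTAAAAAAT
eIF4EHP: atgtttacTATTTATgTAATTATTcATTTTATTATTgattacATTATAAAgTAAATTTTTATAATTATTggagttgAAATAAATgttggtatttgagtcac
eIF1: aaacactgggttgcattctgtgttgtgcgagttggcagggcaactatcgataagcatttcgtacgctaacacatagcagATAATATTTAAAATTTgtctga
eIF5B: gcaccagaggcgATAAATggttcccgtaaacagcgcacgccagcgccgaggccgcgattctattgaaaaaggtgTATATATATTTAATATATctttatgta
The first 6 windows hold 12.9% to 28.7% G and C, with 4 to 6 such runs each. The windows of eIF1 and eIF5B hold 39.6% and 43.6%, with 1 and 2 runs. The main summits not shown are those of eIF6, eIF3h and eIF3c. Their windows hold 39.6%, 38.6% and 37.6%, with 1, 2 and 3 runs. Of the 10 main summit windows, the 5 of synthetase genes thus hold 12.9% to 28.7% and the 5 of initiation factor genes 37.6% to 43.6%. The window of eIF4EHP, an initiation factor gene outside the main list, holds 17.8%, inside the range of the synthetase genes. All 885 main promoter summits have 33.9% ± 10.7 (SD). The difference between the gene classes was not tested.

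A promoter summit was found at 10 of the 77 genes. The main list, made by the authors from both replicates together, placed a summit within 500 bp of a start site of the initiation factor genes eIF6, eIF1, eIF5B, eIF3h and eIF3c and of the synthetase genes GluProRS, IleRS, SerRS, ThrRS and ProRS-m. A gene could be found only where the authors' ranked list, the longer list of candidates from which the main list was taken, had any summit at a start site. That held for 57 of the 77 genes (74.0%), against 10423 of all 13945 protein-coding genes (74.7%). Of those 57 genes, 10 (17.5%, Wilson 95% interval 9.82 to 29.4) had a main summit, against 11.2% of all protein-coding genes with a candidate. The interval includes the share of all genes. The intervals here cover counting error only and treat genes as independent.

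The replicates' own lists gave like counts. In the replicate 1 list 10 of 52 genes with a candidate had a thresholded summit (19.2%, Wilson 95% interval 10.8 to 31.9), against 8.65% of all protein-coding genes. In the replicate 2 list 9 of 50 did (18.0%, interval 9.77 to 30.8), against 8.30% of all. Both replicate lists hold eIF4EHP, which the main list lacks, both lack eIF3c, and replicate 2 lacks ProRS-m. Both replicate intervals lie above the share of all genes, while that of the main list does not. These lists come from the same 2 replicates, and neighbouring genes can share a summit. The intervals are therefore descriptions, and no test of a difference from all genes was made. In the main list, the share to set beside the groups that follow is 11.2% of all protein-coding genes with a candidate. Among the initiation factors 5 of 33 had a main summit (15.2%, interval 6.65 to 30.9), and among the synthetases 5 of 24 (20.8%, interval 9.24 to 40.5). Synthetase genes without the ending -m had one at 4 of 12 (33.3%, interval 13.8 to 60.9) and those with it at 1 of 12 (8.33%, interval 1.49 to 35.4). These 2 intervals overlap, and the shares were not tested against each other.

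**Figure D1:**
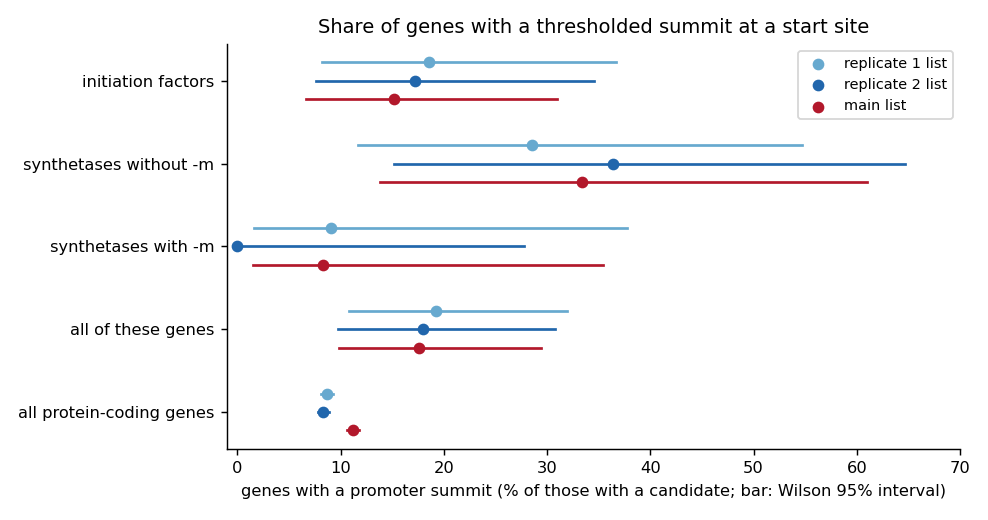
Percentage of genes with a thresholded summit within 500 bp of a start site, of those with a candidate summit in the same list's ranked file, for initiation factors, both kinds of synthetase gene, all of these genes and all protein-coding genes; points are shares in the replicate 1, replicate 2 and main lists and bars are Wilson 95% intervals. The main list share is 17.5% for these genes and 11.2% for all protein-coding genes, and the intervals of the small groups are wide.

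eIF6 had the strongest peak of the group. It encodes the factor that binds the large ribosomal subunit and keeps it from joining the small subunit too early, and it also acts in making that subunit. The peak (2R, 23850303 to 23850509, dm6) had a signal of 604 in the main list, rank 15 of 2088, with 292 in replicate 1 (rank 18 of 1253) and 312 in replicate 2 (rank 19 of 1265). The signal is the authors' own value for a peak and its scale differs between lists, so only ranks are compared across them. The summit lay 100 bp upstream of the start site in the main list, 102 bp upstream in replicate 1 and 98 bp upstream in replicate 2. No other protein-coding start site lay within 500 bp of it, and the summit fell in an exon of a noncoding gene, asRNA:CR45928. Of all main promoter summits of protein-coding genes, 1.24% had this signal or a higher one.

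The eIF1 and eIF5B peaks stood at genes for an early and a late step of initiation. eIF1, which guards the choice of the start codon, had a main signal of 158 (3L, 3222901 to 3223200; rank 347), with 77.0 in replicate 1 and 78.0 in replicate 2. Its summit was 290 bp upstream of eIF1 but 91 bp upstream of RpL28, a ribosomal protein gene on the other strand whose nearest start site is 381 bp away, so the nearer gene at this summit is RpL28. eIF5B, the GTPase of subunit joining, had a main signal of 141 (3L, 3460577 to 3460876; rank 442), with 52.7 in replicate 1 (rank 756) and 85.4 in replicate 2 (rank 329). Its summit lay 124 bp upstream of one eIF5B start site and inside the 5′ UTR of transcripts that begin at another site 374 bp farther upstream. The other 2 genes of this group, eIF1A and eIF5, had no candidate summit in the pooled ranked list.

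Of the 16 genes for subunits of eIF3, the large scaffold on the small ribosomal subunit, 13 had a candidate and eIF3h and eIF3c had a main summit. These are 2 of 13 genes, against 11.2% of all protein-coding genes with a candidate, too few to tell apart from that share. eIF3h had a signal of 134 (2L, 5052315 to 5052614; rank 483), with 63.5 in replicate 1 and 79.5 in replicate 2. Its summit lay in an intron, 315 bp downstream of a start site; senju, on the other strand, starts 63 bp upstream of that site. eIF3c had a signal of 94.3 (2R, 17665542 to 17665841; rank 934), its summit lay 14 bp downstream of a start site in the 5′ UTR, and no thresholded peak of either replicate overlapped it. Its candidates in the replicates' ranked lists had signals of 41.8 (rank 1233 of 116767) and 49.1 (rank 1028 of 121214).

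Of the synthetase genes, GluProRS came first. It encodes a single protein that charges both glutamate and proline tRNAs and belongs to the multisynthetase complex. Its peak (3R, 23958394 to 23958693) had a main signal of 196 (rank 241), with 113 in replicate 1 (rank 174) and 82.1 in replicate 2 (rank 357). The summit lay 153 bp upstream of GluProRS and 107 bp upstream of AP-1sigma, a clathrin adaptor subunit gene that starts 260 bp away on the other strand. IleRS, another enzyme of that complex, had a main signal of 164 (3L, 22288380 to 22288679; rank 323), with 95.1 in replicate 1 and 65.7 in replicate 2, and its summit lay 135 bp upstream, between IleRS and Hem, an actin regulator gene 470 bp away. Both stood higher in replicate 1 by rank than in replicate 2.

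SerRS and ThrRS charge the serine and threonine tRNAs and are not members of the complex in mammals. SerRS had a main signal of 136 (2L, 3037256 to 3037555; rank 470), with 58.1 in replicate 1 and 77.0 in replicate 2. Its summit lay 3 bp upstream of a start site, between SerRS and a start site of CG17260 only 8 bp away on the other strand. ThrRS had a main signal of 114 (2L, 12103424 to 12103723; rank 667), with 46.6 in replicate 1 and 64.0 in replicate 2, and its summit lay 177 bp upstream, between ThrRS and Patsas, 466 bp away. Both stood higher in replicate 2 by rank, at 422 and 597, against 632 and 953 in replicate 1.

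ProRS-m, whose product is a proline-tRNA synthetase of mitochondria, was the weakest of the 10. Its main signal was 79.4 (3L, 2651825 to 2652124; rank 1226). The replicate 1 list held the peak at 53.2 (rank 746), and the replicate 2 list did not; the candidate there had a signal of 23.7 (rank 8572 of 121214). The conservative list lacked it as well. Its summit lay 125 bp upstream of ProRS-m and 113 bp upstream of the nearer start site shared by Snup, which encodes snurportin, and CG42304.

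**Figure D2:**
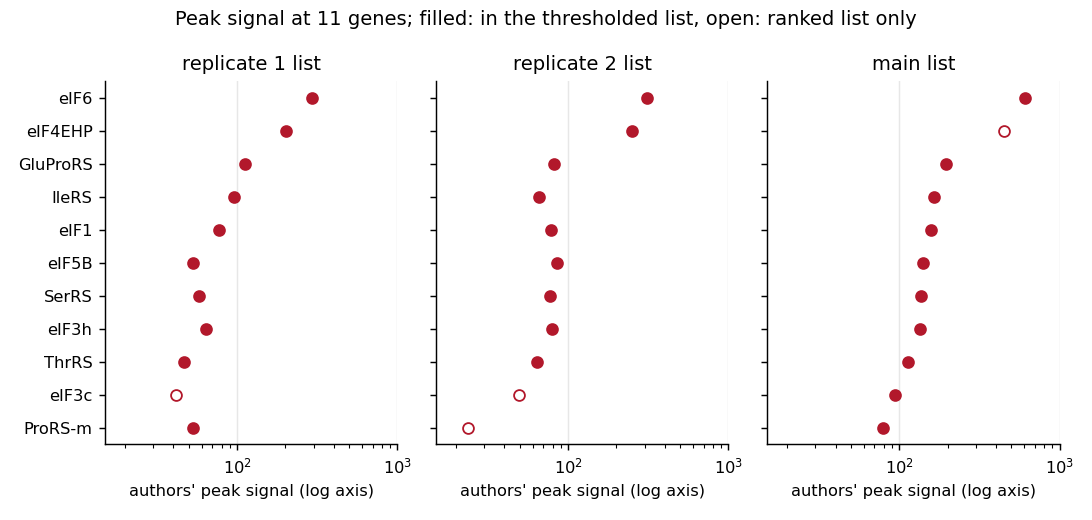
Authors' peak signal (log axis) in the replicate 1, replicate 2 and main lists at the 10 genes with a main promoter summit and at eIF4EHP, from the strongest down; filled points are in the thresholded list and open points are the strongest candidate of that list's ranked file. eIF6 and eIF4EHP are highest in all 3 panels, and the open points are eIF4EHP in the main panel, eIF3c in both replicate panels and ProRS-m in the replicate 2 panel.

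Over the 10 genes the main signals ran from 79.4 to 604 with a median of 138, against a median of 104 (quartiles 74.2 and 155) for all 1166 protein-coding genes with a main promoter summit. Thresholded peaks of both replicates overlapped 8 of the 10 peaks (80%), with eIF3c and ProRS-m as the exceptions, against 615 of the 1166 genes (52.7%). Of the genes with a candidate, these 8 were 14.0% (Wilson 95% interval 7.29 to 25.3), against 5.90% of all protein-coding genes. The 10 genes lay on 4 arms: 4 of 16 genes with a candidate on 3L, 3 of 6 on 2L, 2 of 12 on 2R, 1 of 17 on 3R and 0 of 6 on X. On those arms 12.8%, 11.8%, 10.2%, 11.4% and 9.39% of all protein-coding genes with a candidate had a main summit, in the same order. The counts per arm are too small to read an order from them.

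The eIF4EHP promoter carried a strong peak that the main list lacks. eIF4EHP is a relative of the cap-binding eIF4E that binds the cap without recruiting eIF4G and holds chosen mRNAs silent, in the early fly embryo among other places. In the replicate 1 list the peak (3R, 24109184 to 24109282) had a signal of 201 and rank 52 of 1253. In the replicate 2 list (3R, 24109187 to 24109290) it had a signal of 249 and rank 31 of 1265. The pooled ranked list holds a candidate there (3R, 24109085 to 24109312) with a signal of 452, rank 38 of 151546, and a score of 1000, the highest the authors give. Neither the main list nor the conservative list holds a peak overlapping it, and the nearest main summit was 3580 bp away. On the chromosome arms, 38 candidates had a signal that high or higher, and 35 of them were in the main list. Only 2 candidates of the pooled ranked list on the arms overlapped a thresholded peak of both replicates without overlapping a main peak. They were this one and a weak one at RpL23 (signal 4.26). The reason for the absence was not tested. The summit lay 244 bp upstream of eIF4EHP and 132 bp upstream of CG18428, which starts 376 bp away on the other strand, so CG18428 is the nearer gene. With such peaks added to the main list, a choice made after the data were seen, 11 of 57 genes (19.3%) would have a summit, against 11.2% of all protein-coding genes.

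The rest of the eIF4 genes had no thresholded summit in any list used. Of the 13 eIF4 genes, which cover the cap-binding proteins, the helicase eIF4A, its cofactors and the scaffolds, 10 had a candidate, and apart from eIF4EHP the strongest was that of eIF4G2 at rank 51914. eIF4G1, eIF4E1 and eIF4H1 had none. The 8 genes of eIF2, which carries the initiator tRNA, and of its exchange factor eIF2B also had no main summit. Of these genes 6 had a candidate, and the strongest was at eIF2Bepsilon, with a signal of 23.7 and rank 50285. Of all protein-coding genes with a candidate, 11.2% had a main summit. The eIF4 genes and the eIF2 and eIF2B genes are too few to set against that share. eIF2Bbeta starts 687 bp from the summit of the strongest peak of the whole main list (X, 2703745 to 2704023; signal 1040). Ugalt starts on the other strand, 719 bp upstream of the eIF2Bbeta start site, and the summit stands between these start sites, outside the 500 bp window for eIF2Bbeta. LeuRS-m was the other gene with a main summit within 1000 bp, 872 bp upstream (signal 191). eIF2Bbeta, LeuRS-m, eIF4G2 and eIF2Bepsilon were chosen for mention after their values were seen.

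Among genes with a candidate but no main summit, MetRS came closest after eIF4EHP. MetRS, an enzyme of the multisynthetase complex, had a candidate 122 bp upstream (2R, 18850571 to 18850870) with a signal of 59.7, rank 2144, and a score of 771, against 830 as the lowest score in the main list. In the ranked lists of the replicates it stood at rank 1596 in replicate 1 and rank 21780 in replicate 2. Next were the eIF3 subunit genes eIF3m (signal 48.3, rank 4184), eIF3i (45.4, rank 5366) and eIF3a (43.4, rank 6462). They were followed by a broad field of weak candidates. The 47 genes with only a candidate had a median place 40.2% of the way down the pooled ranked list, against 28.0% for the 9257 protein-coding genes of that kind. Of the 47, 9 (19.1%) had a candidate in the top 10% of the list, against 23.1% of the 9257.

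**Figure D3:**
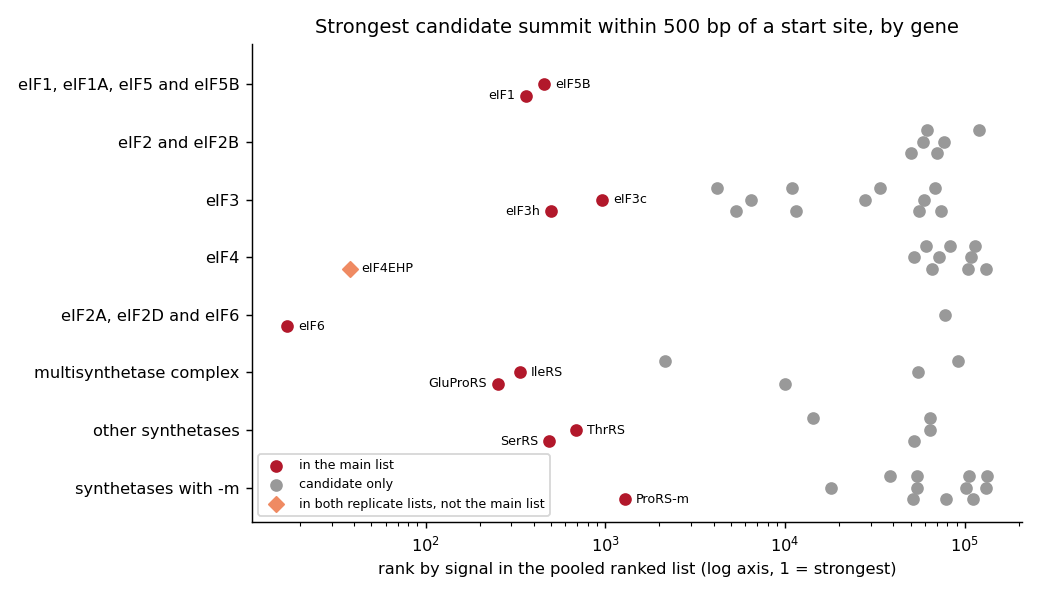
Rank (log axis, 1 is the strongest) of the strongest candidate summit within 500 bp of a start site in the pooled ranked list, for the 57 genes with one, by functional group. Genes of the main list lie between rank 17 (eIF6) and rank 1283 (ProRS-m); eIF4EHP lies at rank 38 without being in that list, and the remaining genes lie at rank 2144 and beyond.

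The remaining genes had only weaker candidates or none. In the complex, AspRS, GlnRS and LysRS had a candidate only, and ArgRS and LeuRS had none. Outside it, AlaRS, HisRS, TrpRS and TyrRS had a candidate only, and AsnRS, CysRS, GlyRS and ValRS had none. Of the genes with the ending -m, ValRS-m, CysRS-m, AlaRS-m, GluRS-m, ArgRS-m, IleRS-m, MetRS-m, SerRS-m, TyrRS-m, TrpRS-m and AsnRS-m had a candidate only, and AspRS-m, LeuRS-m and PheRS-m had none. Candidates alone were also found at eIF2Balpha, eIF2beta, eIF2gamma, eIF2Bgamma, eIF2D, eIF3b, eIF3d1, eIF3d2, eIF3e, eIF3f2, eIF3g1, eIF3g2, eIF3k, eIF4A, eIF4B, eIF4E3, eIF4E4, eIF4E5, eIF4E6, eIF4E7 and eIF4H2. eIF2alpha, eIF2Bdelta, eIF2A, eIF3f1, eIF3j and eIF3l had none.

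Most of the summits lay just upstream of the gene and faced a second gene. Upstream of the start site nearest to them were 8 of the 10, against 86.3% of the 1166 genes with a main promoter summit, and the median position was 124.5 bp upstream, against 139 bp upstream for those 1166 genes. A start site of another protein-coding gene lay within 500 bp of 7 of the 10 summits, against 36.4% of the 885 main promoter summits, each counted once. At 6 of the 10, GluProRS, IleRS, eIF1, SerRS, ThrRS and ProRS-m, the summit stood upstream of a start site on each strand, against 31.9% of the 885. The 10 summits were reached through their genes, and a shared summit can be reached through each of its genes. The 36.4% and 31.9% are therefore not counted alike with them. Counted by gene, an opposite-strand start site lay within 500 bp upstream of 8 of the 10 genes, against 53.8% of the 1166. For GluProRS, eIF1 and ProRS-m the start site nearest to the summit belonged to the other gene. A peak between a pair of start sites cannot be given to one gene from these lists. Counting only the gene with the nearest start site left 7 of 57 genes (12.3%), against 8.30% of all protein-coding genes.

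**Figure D4:**
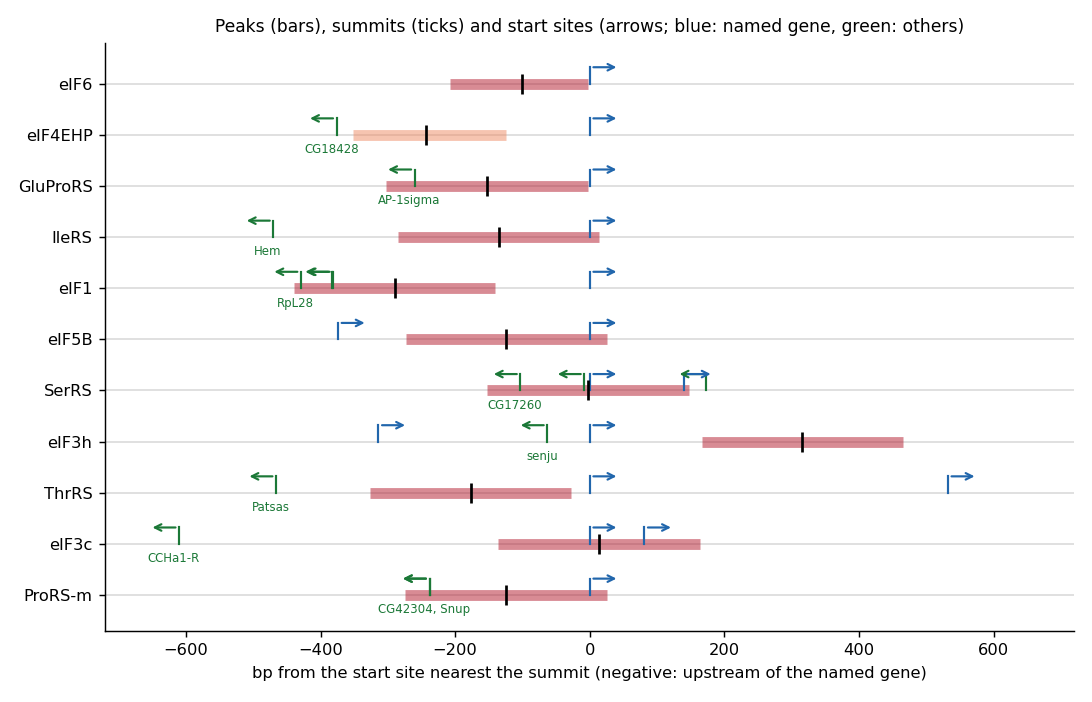
Peaks (bars), summits (black ticks) and protein-coding start sites (arrows in the direction of transcription, blue for the named gene and green for others) at the 10 genes and eIF4EHP, in bp from the start site of the named gene nearest to the summit. Bars in red are main peaks and the bar of eIF4EHP is the candidate of the ranked list; the summits of eIF3h (315 bp) and eIF3c (14 bp) lie downstream.

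The head-to-head arrangement was common among these genes whether or not they had a peak. An opposite-strand protein-coding start site lay within 1000 bp upstream of 44 of the 77 genes (57.1%, Wilson 95% interval 46.0 to 67.6), against 36.2% of all 13945 protein-coding genes. The share was 88.9% among synthetase genes without the ending -m (16 of 18), 46.7% among those with it (7 of 15) and 47.7% among initiation factors (21 of 44). With a main summit, 9 of 10 genes had such a partner (90%, interval 59.6 to 98.2), against 62.6% of all genes with a main summit, and eIF6 was the exception. With a candidate only, 24 of 47 had one (51.1%, interval 37.2 to 64.7), against 31.8% of all such genes. How far the arrangement bears on the share with a peak was not tested.

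The DNA at the summits was poor in G and C. In 101 bases at the summit the 10 main peaks had 30.8% ± 10.3 (SD, n = 10 summits), against 33.9% ± 10.7 (SD) at the 885 main promoter summits and 46.8% ± 10.2 (SD) at the 15671 other candidate summits at promoters. In windows of the same length 400 bp to both sides the 10 had 47.1% ± 8.84 (SD), against 45.1% ± 7.67 (SD) at the 885. The summit was below its flanks at 8 of the 10, against 697 of the 885 main promoter summits. The exceptions among the 10 were eIF1 (39.6% against 30.2%) and eIF5B (43.6% against 41.1%). The lowest was ProRS-m, the weakest peak, at 12.9% with flanks at 53.0%, and the candidate at eIF4EHP had 17.8% with flanks at 50%. In the sequences shown above, the longest run of A and T was 24 bases at ProRS-m, 18 at eIF4EHP and 18 at eIF5B. All 10 summit windows held a run of 6 or more, against 90.2% of main promoter summits and 61.7% of other candidates.

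**Figure D5:**
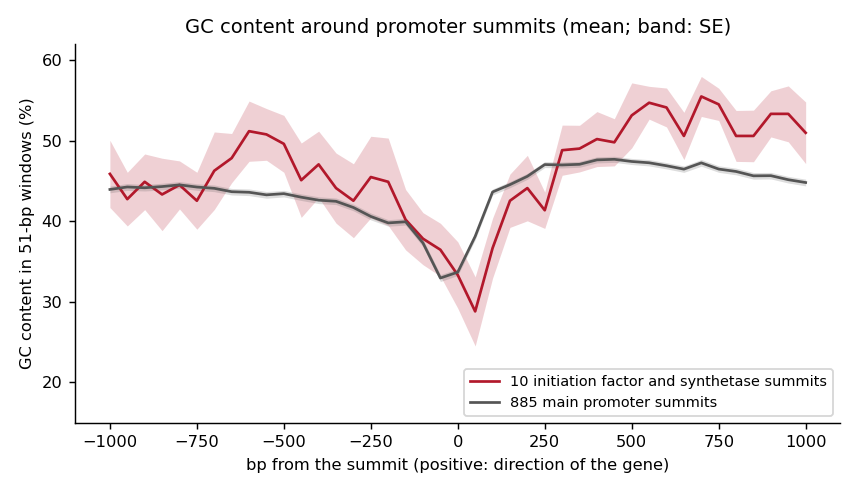
Mean GC content (%) in 51-bp windows at steps along the DNA, in bp from the summit, for the 10 summits (oriented by the named gene) and the 885 main promoter summits (oriented by the gene with the nearest start site); bands are the standard error over summits. The curve of the 10 summits is lowest at 50 bp, in the direction of the gene (28.8%). The curve of the 885 is lowest at -50 bp (33.0%). The curve of the 10 summits has the wider band (28.8% ± 4.29 at 50 bp and 33.3% ± 4.12 at 0 bp), so the place of its low point is uncertain. The curves are also oriented by different rules: at GluProRS, eIF1 and ProRS-m the nearest start site is that of a gene on the other strand.

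A short list of promoter motifs was searched in the same windows on both strands, N standing for any base. TATAAA, the TATA box, was present at 4 of the 10 summits (eIF6, SerRS, ThrRS and ProRS-m), against 23.3% of main promoter summits and 8.79% of other candidates. AAATAT was present at 5 of the 10, against 35.3% and 12.2%. TATCGATA, the DNA replication-related element DRE of fly housekeeping promoters, was present once, at eIF1, from base 45 of the window shown above, against 2.60% and 0.593%. CGATA, the core bound by the insulator protein BEAF-32 and also contained in the DRE, was present at 4 of the 10 (eIF1, eIF5B, SerRS and eIF3c), against 17.1% and 13.1%. GAGAG was present at 1 (eIF3c), against 8.25% and 12.8%. GGTCACAC (Motif 1), CAGCTG (E-box), CANCNCTA (Ohler motif 7) and AGNTGGCGC (CTCF) had no match in the 10 windows, against 0.791%, 4.29%, 4.86% and 0.678% of main promoter summits. With 10 windows these counts are descriptions, and a match shows only that the letters are there.

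The polypyrimidine initiator, the start site element of fly ribosomal protein genes and some translation factor genes, was counted as TCTTT on the gene's strand from 5 bases before to 10 after a start site. It was present at 5 of the 77 genes (6.49%, Wilson 95% interval 2.81 to 14.3), namely TyrRS, eIF3g1, eIF3i, eIF3m and eIF4A, against 2.61% of all protein-coding genes. None of the 10 genes with a main summit had it (0 of 10, interval 0 to 27.8%), against 4.03% of all genes with a main summit.

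Other genes of translation outside the rule were read from a separate list. Of 43 matched genes for elongation, termination, control of initiation, synthetase subunits and mitochondrial factors, 27 had a candidate and 5 had a main summit (18.5% of 27, Wilson 95% interval 8.18 to 36.7), against 11.2% of all protein-coding genes with a candidate, a share inside that interval. The strongest was eEF1gamma, a subunit of the elongation factor 1 complex, with a signal of 303 (3R, 29220070 to 29220206) and a summit 42 bp upstream. It was followed by eEF1alpha1 (109), which delivers tRNAs to the ribosome, and the eIF4E-binding repressor gene Thor (80.9). The termination factor genes eRF1 (80.5) and eRF3 (77.4) came next. All of these summits lay 37 to 86 bp upstream. The replicate 2 list had a summit at all 5 genes, while the replicate 1 list had none at Thor and eRF1. In turn, the elongation factor gene eEF2 had a thresholded summit in the replicate 1 list only (signal 59.5, rank 605). It had no candidate in the pooled ranked list. Of the mitochondrial factor genes 5 had a candidate and of the genes for synthetase subunits and scaffold proteins 3 did, and none of these had a main summit, which is too few genes to set against 11.2%. The phenylalanine synthetase genes alpha-PheRS and beta-PheRS were without a candidate.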

How the data were processed

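Peak lists of 2 biological replicates were analysed. Per the deposited file descriptions, the authors called peaks on dm6 from each replicate alone and from both together, ranked them and thresholded them by IDR, the irreproducible discovery rate, which asks whether a peak keeps its rank when calls are repeated. Which aligner and peak caller were used is not stated in the labels or files read here. The deposited signal value, the deposited score (up to 1000) and the summit offset of each peak were used. The main list held 2088 peaks, all found in the pooled ranked list of 151546 that served as its background. Peaks off the chromosome arms were left out.

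Start sites of protein-coding genes came from Ensembl release 115, which has dm6 coordinates. A summit within 500 bp of any start site of a gene counted for that gene, so a summit can count for several genes. Overlap was 1 bp or more. Every gene with a main summit is named, and up to 5 others by the strongest candidate. The genes, lists and motifs were chosen with earlier results of these data known. Of 50 listed pathway symbols, 7 matched no gene, some of them second spellings. Analyses used Python 3.11.15, pandas 2.3.3 and scipy 1.17.1, and the functions were tested on simulated data. No statistical test was run: 1 group allows no contrast.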

Additional observations from a re-analysis of the deposited data

How the results depend on the processing

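The share of these genes with a promoter summit (17.5% in the main list) ran from 12.3% to 25.8% over the other settings tried, each within the Wilson interval of the main value. It was 19.2% without replicate 2 and 18.0% without replicate 1, against 8.65% and 8.30% of all protein-coding genes. It was 16.4% in the conservative list, against 10.8% of all, 14.0% for peaks in both replicate lists, against 5.90%, 15.8% at or above the median signal, against 6.96%, and 13.0% with all annotated genes as background, against 8.36%. Windows of 250 and 1000 bp gave 25.8% and 18.5%, against 12.0% and 11.8%, and the nearest start site alone gave 12.3%, against 8.30%. The Wilson interval lay above the share of all genes in both replicate lists, for peaks in both of them (7.29 to 25.3), at or above the median signal (8.54 to 27.4) and with 250 bp (13.7 to 43.2). It included that share in the main list and in the other settings, among them the added peaks of both replicates, a setting chosen after seeing the data (19.3%, against 11.2%). With the nearest start site alone the interval was 6.08 to 23.3. All settings reuse the same 2 replicates, so their intervals are not independent and are no test of a difference. The synthetase share moved beyond its interval in 1 setting: 45.5% (5 of 11 genes) with the 250 bp window, against 12.0% of all protein-coding genes. As in the main list 5 synthetase genes had a summit there, but 11 and not 24 had a candidate. Without replicate 1 or 2 the synthetase share was 19.0% or 20.0%, and that of initiation factors 17.2% or 18.5%, against 8.30% or 8.65% of all protein-coding genes. Requiring 50% overlap left 8 of 10 peaks in both replicate lists. No depth is known, and 10 genes give wide intervals.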
